A study of Mus musculus with 28 samples.

Results

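The comparison covered 14 of the 28 small RNA libraries of the cohort, those of the 7 female mice aged 6 months (4 mice) or 8 months (3 mice), with 7 libraries from extracellular vesicles (EVs) and 7 from plasma. The libraries were chosen by the age and fraction given in their labels, and no measured value entered that choice. All mice were C57BL/6N, an inbred laboratory strain, untreated and without a transgene as far as the labels state. Blood was drawn from the vena cava, low-speed spins removed platelets, large vesicles and debris, and ultracentrifugation then split the plasma of each mouse into a pellet enriched in EVs and a supernatant depleted of them, called plasma here. Each mouse gave 1 library per fraction and nothing was pooled, so EVs and plasma were compared within the same animal. The question was which RNAs in blood are held in the vesicle pellet and which stay in the fluid. No RNA defines an EV, and the tables hold no protein, so the labels of the fractions could not be checked against vesicle markers.

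EVs are membrane-bound particles that cells release, and they carry RNA of the cytoplasm, including full-length and fragmented ribosomal, transfer and Y RNAs. Outside vesicles, RNA in plasma is held in complexes with proteins, among them Argonaute proteins, and in lipoproteins, which protect short RNAs from nucleases. A pellet from ultracentrifugation can hold large ribonucleoprotein complexes beside vesicles, and the measurement does not separate the 2 kinds of particle. In such bulk samples, fewer particles and less RNA per particle cannot be told apart. The library protocol favours short RNAs, so longer RNAs (rRNA, lncRNA, circRNA) were seen as fragments.

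The sequences of the miRNAs whose difference between EVs and plasma held under each of the 4 scalings compared below are shown first, because these are the miRNAs on which a statement about sorting would rest. They are mature sequences from RefSeq (GRCm38.p6), written 5′ to 3′ with the seed (bases 2 to 8, which pairs with targets) in capitals. The 9 miRNAs higher in EVs were:
miR-1956: aGUCCAGGgcugagucagcgga
miR-5621-5p: aGGAGGUCcuggggccgcccuga
miR-6239: uAGCGUUGgaucacucggug
miR-494-3p: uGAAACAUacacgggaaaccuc
miR-6236: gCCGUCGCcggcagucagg
miR-12188-5p: uAGAAGAGcuuucgcuggcccaga
miR-674-5p: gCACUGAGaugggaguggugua
miR-6238: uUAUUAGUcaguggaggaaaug
miR-6240: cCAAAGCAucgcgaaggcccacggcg
The 3 miRNAs higher in plasma were:
miR-1898: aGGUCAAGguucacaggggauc
miR-704: aGACAUGUgcucugcuccuag
miR-1983: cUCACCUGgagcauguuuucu
No seed is shared among these 12 miRNAs. miR-1956 lies at chr3:138526425-138526446 on the plus strand, within an exon of Eif4e, and miR-12188-5p at chr17:25160503-25160526 (plus), within an exon of Clcn7. miR-5621-5p lies at chr11:115795824-115795846 (plus) in an intron of Tmem94. miR-6239 lies at chr14:117953768-117953787 (minus), opposite to an intron of Gpc6. miR-704 at chr6:47803590-47803610 (minus) and miR-1898 at chr15:12171502-12171523 (plus) lie in introns of Pdia4 and Zfr. The others were intergenic in the annotation used (GENCODE M21, GRCm38), among them miR-494-3p at chr12:109715367-109715388 (plus) and miR-1983 at chr13:21896930-21896950 (minus).

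Of the structured RNAs, the Y RNAs are shown because the 2 Y RNAs of the mouse differed in their calls, and Snora73a because it was the most abundant snoRNA. Capitals mark nothing in these sequences, which are GENCODE M21 transcripts on GRCm38. Rny1 lies at chr6:47788069-47788180 (minus) and Rny3 at chr6:47781624-47781725 (plus), both between genes. Snora73a, a snoRNA needed for processing of the 18S rRNA precursor, lies at chr4:132352775-132352979 (minus) in an exon of Snhg3 and an intron of Rcc1.
Rny1: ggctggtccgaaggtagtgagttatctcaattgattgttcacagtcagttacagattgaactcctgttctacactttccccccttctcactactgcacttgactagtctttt
Rny3: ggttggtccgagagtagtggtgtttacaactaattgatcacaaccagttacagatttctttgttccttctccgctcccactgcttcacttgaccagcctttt
Snora73a: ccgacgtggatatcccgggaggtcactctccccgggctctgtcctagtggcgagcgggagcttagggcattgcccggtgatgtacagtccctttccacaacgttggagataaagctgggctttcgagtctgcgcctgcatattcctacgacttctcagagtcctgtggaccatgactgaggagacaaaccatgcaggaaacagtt

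The libraries held between 4764338 and 18364943 counts in EVs (median 11812280) and between 928651 and 14209150 in plasma (median 7315161), and the EV library was the deeper one in 6 of 7 mice. The plasma library of replicate 1 at 6 months was the shallowest. miRNAs gave 20063 to 74436 counts per EV library and 4977 to 39938 per plasma library. Replicate 3 at 6 months had the EV library most like plasma in its class makeup, and replicate 4 at 6 months had high levels of vessel wall miRNAs in both fractions. The labels number the EV libraries apart from the plasma libraries, so that fraction and numbering order cannot be told apart.

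The largest part of the difference lay in rRNA and tRNA. Fragments of rRNA, the RNA of the ribosome, took 41.6% ± 13.3 (SD, n = 7) of the counts in EVs and 12.5% ± 4.04 in plasma. The lowest, median and highest EV libraries held 20.7%, 43.6% and 61.4%, and those of plasma 6.05%, 12.9% and 17.4%. Every EV library thus lay above every plasma library, the share was higher in EVs in 7 of 7 mice, and the mean within-mouse ratio was 3.33-fold. tRNA fragments took 24.4% ± 10.1 in EVs (11.3%, 25.8% and 41.9%) and 53.1% ± 7.47 in plasma (43.8%, 53.0% and 65.4%), a 2.33-fold higher share in plasma with no overlap of the groups. Replicate 3 at 6 months had the smallest of these differences, with 20.7% against 12.9% for rRNA and 41.9% against 44.9% for tRNA. The exact two-sided sign-change test over the 7 mice gave p = 0.0156 for each, which is the smallest p that 7 pairs allow. The p adjusted over the 10 classes was 0.0781 for both. Without replicate 3 at 6 months the log2 ratio of shares was 1.91 for rRNA and -1.41 for tRNA. At 12 to 18 months, in 4 other mice, rRNA took 33.7% in EVs and 6.80% in plasma on average, and tRNA 44.4% and 74.9%.

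**Figure D1:**
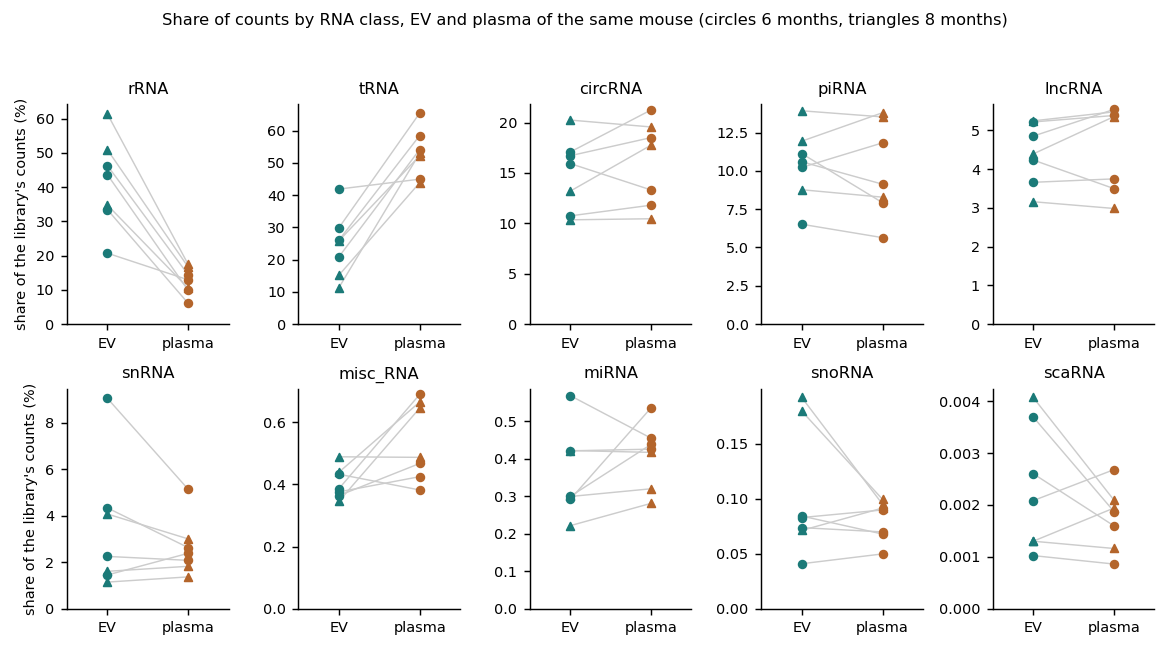
Share of all counts (%) taken by each RNA class in the 7 EV and 7 plasma libraries, 1 point per library (circles 6 months, triangles 8 months), with lines joining the libraries of a mouse. The 7 EV libraries lie above the 7 plasma libraries for rRNA and below them for tRNA, while the other classes overlap.

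Of the RNAs tested, 698 had counts identical to those of another row, among them 241 tRNAs and 46 rRNAs, and how reads matching several RNAs were counted is not stated. When rows with identical counts were counted once, rRNA took 31.4% ± 9.15 in EVs and 13.9% ± 3.74 in plasma, a 2.24-fold ratio that still held in 7 of 7 mice without overlap. tRNA then took 12.7% ± 5.16 and 28.3% ± 6.53, and it was higher in plasma in 6 of 7 mice, with groups that overlapped. The shares of the other 8 classes overlapped between EVs and plasma. circRNA-annotated fragments took 14.9% ± 3.62 in EVs and 16.1% ± 4.19 in plasma, and piRNA-annotated RNAs 10.4% ± 2.35 and 10.0% ± 3.09. miRNAs took 0.360% ± 0.117 in EVs and 0.410% ± 0.0853 in plasma, higher in plasma in 5 of 7 mice (exact p = 0.172). Because shares sum to a constant, they were also taken without rRNA. tRNA was then 40.4% ± 8.82 in EVs against 60.7% ± 7.12 in plasma (6 of 7 mice, adjusted p = 0.0352 by the exact sign-change test), and the shares of the other 8 classes were higher in EVs in at least 6 of 7 mice.

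Across single RNAs, 14498 of 80668 reached at least 1 RPM in at least 7 of the 14 libraries and were tested with edgeR with the mouse as a block, and 1524 of them (10.5%) had an adjusted p under 0.05. Of these, 1042 were higher in EVs (7.19% of those tested) and 482 were higher in plasma (3.32%). Without replicate 3 at 8 months 991 were called (624 in EVs, 367 in plasma). This split depended on how libraries were scaled. Trimmed mean of M-values (TMM) scaling put the median RNA at a log2 ratio of 0.035, whereas scaling by the deposited RPM put it at -0.468, lower by 0.503. EVs took 68.4% of the calls under TMM and 68.0% under DESeq2 size factors, but 23.3% under RPM and 27.2% under TMM over miRNAs alone. RNAs called in the same direction under each of these 4 scalings numbered 510 for EVs (3.52%) and 478 for plasma (3.30%), and those directions do not depend on the choice among the 4. In the text, values per library are the deposited RPM, given as the lowest, the median and the highest of 7 libraries, while fold changes come from the TMM fit. They lie above fold changes under RPM scaling. The 0.503 is the shift of the median RNA, and the shift of single RNAs differed. For the rRNA gene model CT010467.1 the log2 ratio was 1.54 under TMM and 0.94 under RPM scaling.

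**Figure D2:**
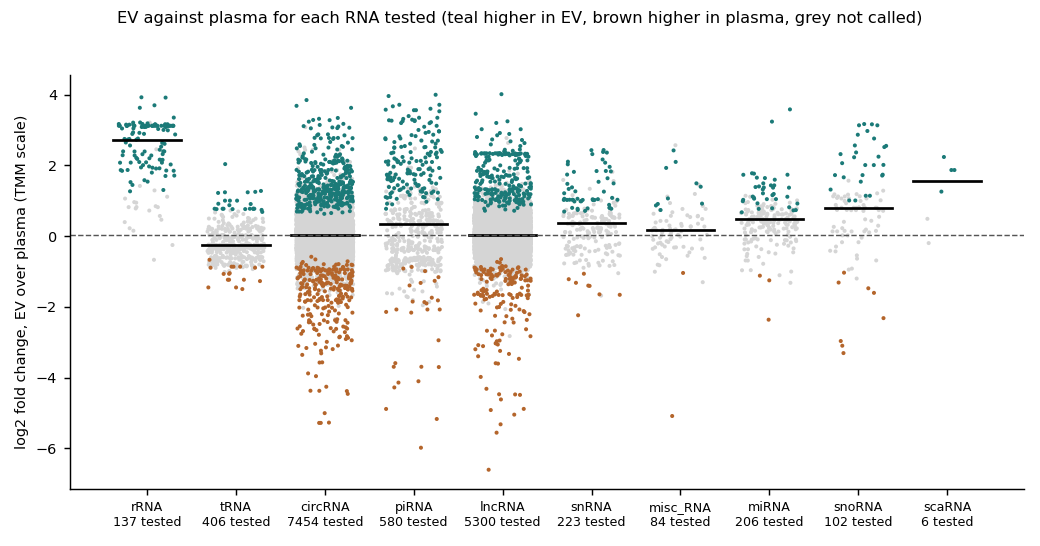
Fitted log2 ratio of EVs to plasma (TMM scale) for the tested RNAs of each class, with the calls at an adjusted p under 0.05 marked. The rRNA class has a median of 2.72 and no call towards plasma, while the medians of circRNA and lncRNA lie at 0.024 and 0.023.

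In deposited RPM the EV and plasma libraries of 370 RNAs did not overlap. EVs were above plasma for 55 of them (0.379% of the RNAs tested) and below for 315 (2.17%). The 315 held 153 of the 7454 circRNAs tested, 101 of the 5300 lncRNAs, 33 of the 406 tRNAs and 20 of the 580 piRNAs. The 55 held 18 circRNAs, 10 lncRNAs, 14 of the 137 rRNAs and 11 piRNAs. These counts have 2 limits. An RNA below 1 RPM throughout 1 fraction was tested only if all 7 libraries of the other reached 1 RPM. For such RNAs the lack of overlap was set by the filter. The split was also read in RPM, the scale on which the median RNA lay at -0.468. All 1524 calls had the same sign at 6 and at 8 months, but the 2 ages are the mice of the pooled fit, so this is a description. Called at 6 months alone were 438 RNAs and at 8 months alone 552. The 299 called at both ages had the same direction and made up 68.3% of the first and 54.2% of the second list.

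rRNA fragments formed the class with the highest share of rows called (84.7%), and most of its rows were copies of 5S rRNA. Of 137 rRNAs tested, 116 rose in EVs and none in plasma, with a median log2 ratio of 2.72, and 109 did so under each scaling (against 3.52% of all RNAs tested). Of these 137, none was called in plasma in edgeR, DESeq2 or under any of the 4 scalings, and 123 had an unadjusted p under 0.05. With more RNAs admitted, 1 rRNA was called in plasma under the filter of the study and 1 with no filter. The 137 rows held 97 distinct rows of counts, the rest being copies with identical counts. Copies of 5S rRNA made up 101 of the 137 rows and 90 of the 116 calls, so these are not 116 separate RNAs.

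Rn5s, the 5S rRNA of the large ribosomal subunit, stood at 2893, 8978 and 22871 RPM in EVs and at 810, 1224 and 3459 RPM in plasma. It was higher in EVs in 7 of 7 mice, by 8.67-fold (log2 3.12, SE 0.36, edgeR adjusted p = 0.000196), although the highest plasma library overlapped the lowest EV library. The counts of Rn5s were shared by 32 rows of the table, so its value stands for all of those copies. Of the 101 copies of 5S rRNA tested (70 distinct rows, 180 in the table), 90 rose in EVs, 86 of them under each scaling, with a median log2 ratio of 2.87 against 0.035 over all RNAs. Their summed RPM, in which copies with identical counts each enter, was 102088, 318853 and 813659 in EVs and 29213, 43771 and 124395 in plasma.

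n-R5-8s1, the 5.8S rRNA that pairs with 28S rRNA in the large subunit, measured 142, 252 and 454 RPM in EVs and 46.2, 93.0 and 189 RPM in plasma. Its 4.06-fold difference held in 7 of 7 mice (log2 2.02, SE 0.25, edgeR adjusted p = 0.000322). The largest change of the class was in Gm24601, a predicted rRNA gene, at 143, 662 and 1701 RPM in EVs and 25.7, 52.0 and 218 RPM in plasma (log2 3.92, SE 0.45, edgeR adjusted p = 0.000205).

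The most abundant RNA of all classes was CT010467.1, an rRNA gene model at chr17:39846353-39848827 (minus strand, GRCm38), which overlaps the lncRNA Gm42418 on the opposite strand. No source used here states whether counting used strand. It reached 81810, 183315 and 252085 RPM in EVs and 55054, 64752 and 133222 RPM in plasma and was higher in EVs in 7 of 7 mice. The 2.90-fold difference was close to the threshold (log2 1.54, SE 0.44, edgeR adjusted p = 0.0435). It was lost when any 1 mouse other than replicate 3 at 6 months was left out, with adjusted p between 0.0528 and 0.122. The sum over 5S copies thus differed more than this large fragment, by the values above, and the difference between the 2 was not tested.

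**Figure D3:**
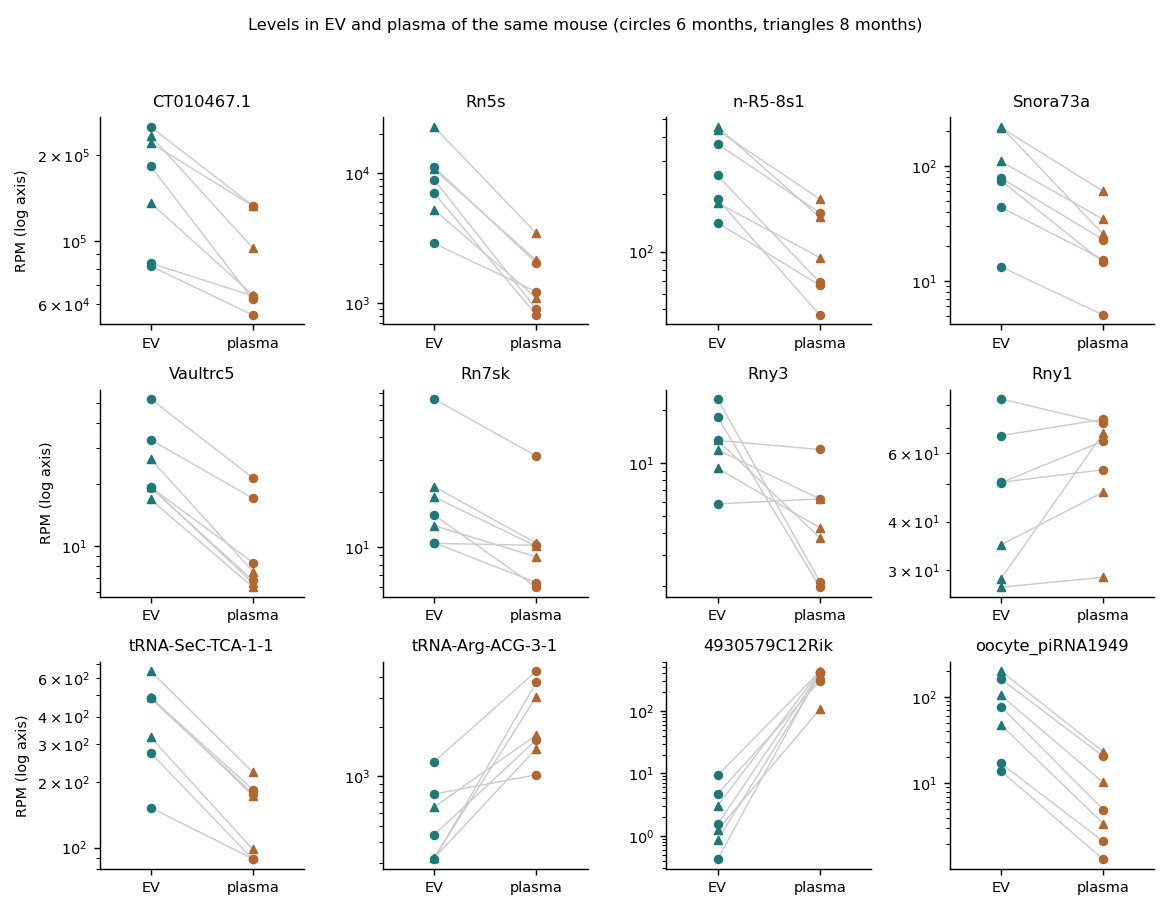
Deposited RPM (log axis) of named RNAs in the EV and plasma library of each of the 7 mice, with a line joining the libraries of a mouse (circles 6 months, triangles 8 months). The lines for Rn5s and Snora73a run in 1 direction in all 7 mice, from higher values in EVs to lower values in plasma.

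snoRNAs guide the modification of rRNA and other RNAs in the nucleolus, and the 2 box types differed in how many were called. Of 102 snoRNAs tested (86 distinct rows of counts), 29 rose in EVs and 8 in plasma (21 and 7 under each scaling). Thus 36.3% were called against 10.5% of all RNAs, with a median log2 ratio of 0.80. H/ACA box snoRNAs, which direct pseudouridylation, rose in EVs in 11 of 16 rows tested, 9 of them under each scaling, and none rose in plasma. The 16 held 15 distinct rows of counts, and Snora16a was among the 11 with 2 rows. Snora7a, Snora75 and Snora2b of the 11 were called in 2 of the 7 fits that left out 1 mouse, the others in 7. Their summed RPM was 58.9, 206 and 699 in EVs and 35.8, 76.7 and 197 in plasma, higher in EVs in 7 of 7 mice with overlapping ranges. C/D box snoRNAs, which direct ribose methylation, had no call among 9 rows tested (edgeR), with a median log2 ratio of 0.81, and the difference between the box types was not tested.

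Snora73a stood at 13.3, 78.6 and 219 RPM in EVs and 5.05, 22.9 and 60.1 RPM in plasma, 5.90-fold higher in EVs in 7 of 7 mice (log2 2.56, SE 0.26, edgeR adjusted p = 0.000138). Its near-identical copy Snora73b followed it (log2 2.55), and reads of the 2 copies may not be told apart. Snora81 showed a larger ratio at a lower level, with 4.80, 9.34 and 62.7 RPM against 0.439, 3.40 and 8.84 RPM (8.76-fold, log2 3.13, SE 0.28, edgeR adjusted p = 6.57e-05). Snora74a, at 0.893, 3.47 and 21.6 RPM in EVs and 0.177, 1.03 and 4.13 RPM in plasma, was 6.76-fold higher in EVs (edgeR adjusted p = 0.000196). Both of these were higher in EVs in 7 of 7 mice, with ranges that overlapped. The call was not shared by every H/ACA snoRNA. Snora17 was measured at 0.446, 2.68 and 7.72 RPM in EVs and 1.10, 3.07 and 7.07 RPM in plasma (log2 0.40, SE 0.31, edgeR adjusted p = 0.493). A pair of predicted snoRNAs lay at opposite ends of the class. Gm25487 was 8.97-fold higher in EVs (1.56, 4.51 and 12.0 against 0, 0.590 and 2.95 RPM, edgeR adjusted p = 0.000393), and Gm26088 was 9.91-fold higher in plasma without overlap (2.41, 3.15 and 5.11 against 0, 0.279 and 0.378 RPM, edgeR adjusted p = 0.00141). No EV library of Gm26088 reached 1 RPM, so it passed the filter only through its 7 plasma libraries. Its direction and lack of overlap were thus set by the filter.

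Cytoplasmic noncoding RNAs that work as part of ribonucleoproteins were not uniform. Y RNAs bind the Ro60 protein, and the mouse carries Rny1 and Rny3. Rny3 stood at 5.86, 13.4 and 23.0 RPM in EVs and 1.97, 4.29 and 11.9 RPM in plasma, 4.27-fold higher in EVs in 6 of 7 mice (log2 2.10, SE 0.39, edgeR adjusted p = 0.00435). Rny1 measured 27.1, 50.4 and 82.9 RPM in EVs and 28.8, 64.6 and 73.5 RPM in plasma, which did not pass (log2 0.27, SE 0.25, edgeR adjusted p = 0.585), and its sign turned under RPM scaling (-0.31) and under TMM over miRNAs alone (-0.22). By RPM, Rny1 was higher in EVs in 1 of 7 mice. The difference between the 2 Y RNAs was not tested.

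Vaultrc5, the RNA of the vault particle, rose 3.80-fold in EVs in 7 of 7 mice, from 6.31, 7.52 and 21.5 RPM in plasma to 16.9, 19.5 and 52.1 RPM (log2 1.93, SE 0.26, edgeR adjusted p = 0.000499). Rn7sk, the 7SK RNA that holds the transcription elongation factor P-TEFb inactive in the nucleus, rose 2.63-fold in 7 of 7 mice (10.5, 14.98 and 65.1 against 6.01, 10.1 and 31.6 RPM, edgeR adjusted p = 0.000632). The other rows of the 7SK list, the circRNA-annotated mmu_circ_0007392 and mmu_circ_0007393, did not pass (log2 0.14 and 0.33, edgeR adjusted p = 0.677 and 0.282). The summed RPM of the 3 rows, 148, 285 and 472 in EVs and 211, 351 and 392 in plasma, was higher in EVs in 2 of 7 mice. Rn7s1, the 7SL RNA of the signal recognition particle, was at 906, 1127 and 1797 RPM in EVs and 677, 1339 and 2600 RPM in plasma. It did not pass (log2 0.43, SE 0.22, edgeR adjusted p = 0.277), and its sign turned under RPM scaling (-0.17) and under TMM over miRNAs alone (-0.07). At the other end of the misc_RNA class Gm27404 was listed at 0 to 0.434 RPM in EVs and at 3.07, 5.07 and 17.0 RPM in plasma (log2 -5.09, SE 0.54, edgeR adjusted p = 0.000149). Below 1 RPM in every EV library, it passed the filter only through plasma, which set its direction in advance. Of the 84 misc_RNAs tested, 10 rose in EVs and 2 in plasma (14.3% called, against 10.5% of all RNAs). The 10 fell to 4 without replicate 3 at 8 months, to 5 without replicate 1 at 6 months and to 6 without replicate 3 or 4 at 6 months or replicate 1 at 8 months.

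Among 223 snRNAs, the RNAs of the spliceosome and their many copies, 52 rose in EVs and 8 in plasma, and 15 and 8 did so under each scaling. The 26.9% called stood against 10.5% of all RNAs. Gm23680 was 5.39-fold higher in EVs (56.8, 94.9 and 337 against 9.91, 35.8 and 64.6 RPM, edgeR adjusted p = 0.000417) and Gm23303 was 4.72-fold higher in plasma (2.24, 5.93 and 10.2 against 0.140, 0.559 and 3.12 RPM, edgeR adjusted p = 0.00188). Both moved the same way in 7 of 7 mice. The most abundant row, Gm22513, at 1047, 1208 and 6457 RPM in EVs and 740, 964 and 3253 RPM in plasma, passed under TMM (log2 1.08, SE 0.19, edgeR adjusted p = 0.00339) and not under RPM scaling (0.48, adjusted p = 0.170). The highest EV value of the snRNA class belonged to replicate 4 at 6 months, with 9.04% of its counts, against 1.15% to 4.33% in the other EV libraries.

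Of 6 scaRNAs, which guide modification of snRNAs in Cajal bodies, 4 rose in EVs, 1 under each scaling. The 6 held 5 distinct rows of counts, and 2 of the 4 calls were the identical rows of Gm26413. Without replicate 3 at 8 months 1 was called, and without replicate 2 or 4 at 6 months or replicate 1 at 8 months 2 were. Mir1839, a row whose transcript also contains the mature miR-1839-5p, measured 2.27, 3.47 and 5.02 RPM in EVs and 1.39, 1.70 and 4.17 RPM in plasma (log2 1.26, SE 0.30, edgeR adjusted p = 0.0188). It did not pass under RPM scaling (0.75, adjusted p = 0.0928), nor without any 1 of the 3 mice at 8 months (adjusted p between 0.0519 and 0.0728).

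tRNA fragments as a class were more abundant in plasma by share, and single tRNAs depended on the scaling. Of 406 tRNAs tested, which held 222 distinct rows of counts, 24 rose in EVs and 17 in plasma (10.1% called, against 10.5% of all RNAs), with a median log2 ratio of -0.26. Under RPM scaling 1 rose in EVs and 238 in plasma. The counts also turned on single mice. In plasma 1 was called without replicate 2 at 6 months, 2 without replicate 1 at 8 months and 8 without replicate 2 at 8 months, but 50 without replicate 1 and 45 without replicate 3 at 6 months. In EVs 2 were called without replicate 3 at 8 months, 13 without replicate 1 at 6 months and 14 without replicate 3 or replicate 4 at 6 months. Of the 41 tRNAs, 2 were called in all 7 fits that left out 1 mouse. The same 17 in plasma, but 1 of the 24 in EVs, were called under each scaling. The 17 were 7 tRNA-Arg, 6 tRNA-Glu, 2 tRNA-Ile, 1 tRNA-Ala and 1 tRNA-Leu, and for no tRNA did every EV library lie above every plasma library.

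The 1 tRNA higher in EVs under each scaling was tRNA-SeC-TCA-1-1, the tRNA that inserts selenocysteine at a recoded stop codon. It stood at 153, 485 and 647 RPM in EVs and at 88.3, 173 and 222 RPM in plasma, 4.09-fold higher in EVs in 7 of 7 mice (log2 2.03, SE 0.26, edgeR adjusted p = 0.000402). The lowest EV library, of replicate 3 at 6 months, overlapped the plasma libraries. As a part of all tRNA counts, tRNA-SeC took 0.143% ± 0.0825 in EVs and 0.0217% ± 0.00671 in plasma, a 5.79-fold ratio.

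Among tRNAs higher in plasma, tRNA-Arg-ACG-3-1 measured 314, 442 and 1228 RPM in EVs and 1024, 1786 and 4353 RPM in plasma. It was 2.74-fold higher in plasma in 7 of 7 mice (log2 -1.45, SE 0.39, edgeR adjusted p = 0.0351). The call was lost without replicate 2 at 6 months, replicate 1 at 8 months or replicate 3 at 8 months (adjusted p between 0.0614 and 0.0715). tRNA-Ile-TAT-3-1 was measured at 1.79, 3.91 and 10.9 RPM in EVs and 8.50, 13.6 and 25.5 RPM in plasma, 2.42-fold higher in plasma (log2 -1.27, SE 0.34, edgeR adjusted p = 0.0315). It was lost without replicate 2 at 6 months or replicate 2 at 8 months (adjusted p = 0.0660 and 0.0551). The most abundant tRNA, tRNA-Pro-TGG-2-1, did not overlap in RPM (3201, 5588 and 8966 in EVs, 9329, 13004 and 23496 in plasma). It did not pass under TMM (log2 -0.62, SE 0.29, edgeR adjusted p = 0.218), while RPM scaling gave -1.22 with an adjusted p of 0.00244.

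As shares of the tRNA counts, which do not depend on the scaling of libraries, 5 of 23 isotypes moved the same way in 7 of 7 mice. tRNA-Met (elongator) took 0.0570% ± 0.0207 in EVs and 0.0211% ± 0.00778 in plasma without overlap, a 2.78-fold ratio. tRNA-Leu took 2.66% ± 0.450 and 1.78% ± 0.262 (1.49-fold), and tRNA-Trp 0.110% ± 0.0334 and 0.0648% ± 0.0176 (1.70-fold). tRNA-Arg alone was lower in EVs in 7 of 7 mice, with 1.81% ± 0.313 against 2.44% ± 0.504. With tRNA-SeC, each had an exact sign-change p of 0.0156, the smallest possible, and 0.0553 after adjustment over the 23 isotypes. With identical rows counted once tRNA-Arg was lower in EVs in 6 of 7 mice, and the other 4 isotypes kept 7 of 7. In that count tRNA-Ile was lower in EVs in 7 of 7 mice (log2 ratio of shares -0.27) and tRNA-Asn higher in 7 of 7 (0.46). The anticodons of tRNA-Arg did not move alike. tRNA-Arg-ACG was lower in EVs in 7 of 7 mice (log2 ratio of shares -0.83) and tRNA-Arg-CCG in 4 (-0.20). tRNA-Arg-CCT, tRNA-Arg-TCT and tRNA-Arg-TCG were higher in EVs in 6, 5 and 5 mice (0.59, 0.50 and 0.14). Of the isotypes that made up most of the tRNA counts, tRNA-Pro took 25.0% ± 4.21 in EVs and 27.4% ± 5.44 in plasma (exact p = 0.125) and tRNA-His 15.9% ± 2.65 and 14.5% ± 2.29 (exact p = 0.109).

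Of 206 miRNAs tested, 37 rose in EVs and 3 in plasma (19.4% called, against 10.5% of all RNAs). Their median log2 ratio depended on the scaling. It was 0.47 under TMM, -0.055 under RPM scaling and -0.011 under TMM over miRNAs alone. Under each scaling 9 rose in EVs (against 3.52% of all RNAs) and 3 in plasma (against 3.30%), those whose sequences are shown above. Scaling by RPM gave 9 and 17, and TMM over miRNAs alone 10 and 11. Without replicate 4 at 6 months 28 miRNAs were called, and without replicate 1 at 6 months, whose plasma library was shallow, 23 were called. Leaving out replicate 2 at 6 months gave 24, replicate 1 at 8 months 22 and replicate 3 at 8 months 19.

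miR-1956 had the largest ratio of the miRNAs, at 7.59, 15.8 and 37.8 RPM in EVs and 0.943, 1.77 and 6.72 RPM in plasma. It was 12.0-fold higher in EVs in 7 of 7 mice without overlap (log2 3.58, SE 0.31, edgeR adjusted p = 5.68e-05). miR-5621-5p stood at 1.10, 1.95 and 6.70 RPM in EVs and 0, 0.439 and 3.40 RPM in plasma, 9.41-fold higher in EVs in 7 of 7 mice (log2 3.23, SE 0.61, edgeR adjusted p = 0.00435). Few reads lie behind it, since plasma libraries held at most 6 counts, and its log2 ratio was 3.85 without replicate 2 and 2.60 without replicate 3 at 8 months. miR-6239 did not overlap, with 5.28, 8.19 and 11.9 RPM in EVs and 1.30, 3.77 and 5.11 RPM in plasma (3.42-fold, log2 1.77, SE 0.31, edgeR adjusted p = 0.00285).

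miR-494-3p, encoded in the imprinted Dlk1-Dio3 region, measured 1.79, 11.4 and 31.9 RPM in EVs and 1.32, 5.42 and 19.3 RPM in plasma, higher in EVs in 7 of 7 mice with overlapping ranges (3.32-fold, edgeR adjusted p = 0.00936). It shares a string of 14 bases with the rRNA gene model CT010467.1. miR-6238 was among the 5 most abundant miRNAs, with 55.4, 446 and 982 RPM in EVs and 19.1, 168 and 913 RPM in plasma (3.02-fold, log2 1.59, SE 0.30, edgeR adjusted p = 0.00494), and was higher in EVs in 6 of 7 mice. Its values spread widely between mice in both fractions, and without the mouse as a block its adjusted p was 0.288. The other miRNAs with a call under each scaling had smaller ratios, 3.32-fold for miR-6236, 3.14-fold for miR-12188-5p, 3.11-fold for miR-674-5p and 2.81-fold for miR-6240. Of these, miR-674-5p was called in 6 of the 7 fits that left out 1 mouse (highest edgeR adjusted p 0.0505).

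On the plasma side miR-1898 was listed at 0.112, 0.459 and 1.95 RPM in EVs and at 1.97, 4.07 and 8.96 RPM in plasma, 5.15-fold higher in plasma without overlap (log2 -2.36, SE 0.37, edgeR adjusted p = 0.00139). miR-704 did not overlap either, with 0.630, 1.22 and 1.52 RPM in EVs and 1.70, 3.59 and 5.27 RPM in plasma (2.38-fold, edgeR adjusted p = 0.0207), and was lost without replicate 2 at 6 months (adjusted p = 0.0627). miR-1983, at 0.756, 1.68 and 3.35 RPM in EVs and 2.12, 6.80 and 8.51 RPM in plasma, was close to the threshold (2.17-fold, edgeR adjusted p = 0.0398). It was lost without replicate 2 or replicate 4 at 6 months or any 1 of the 3 mice at 8 months (adjusted p between 0.0613 and 0.103). All 3 were higher in plasma in 7 of 7 mice, at levels of a few RPM.

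**Figure D4:**
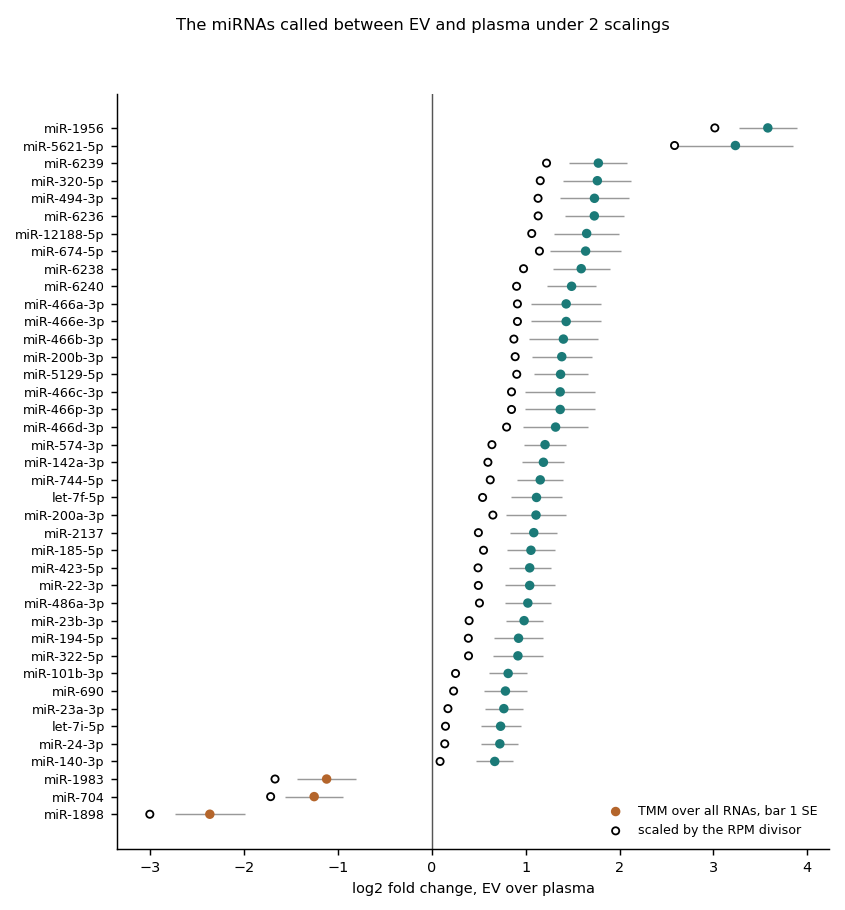
Fitted log2 ratio of EVs to plasma with a bar of 1 SE for the 40 miRNAs with an adjusted p under 0.05 (filled points, TMM scale), and the ratio of the same miRNAs under RPM scaling (open points). Open points lie to the left of filled ones, and miR-1956 has the highest ratio (3.58) and miR-1898 the lowest (-2.36).

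Of the 5 most abundant miRNAs, miR-6238 alone passed. miR-451a, which red cells make by an Argonaute-dependent route without Dicer, stood at 375, 541 and 946 RPM in EVs and at 515, 644 and 1149 RPM in plasma (log2 0.33, SE 0.23, edgeR adjusted p = 0.441). Its sign turned under RPM scaling (-0.26) and under TMM over miRNAs alone (-0.16). miR-21a-5p gave 135, 202 and 575 RPM in EVs and 131, 270 and 567 RPM in plasma (log2 0.22, SE 0.21, edgeR adjusted p = 0.599), with -0.37 and -0.28 under the same scalings. miR-3473b and miR-3473e had log2 ratios of -0.10 and -0.12 (SE 0.24 each, edgeR adjusted p = 0.877 and 0.842).

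miR-29c-3p, which targets collagens and other matrix genes, measured 14.7, 19.8 and 78.9 RPM in EVs and 12.0, 22.2 and 66.5 RPM in plasma. Its log2 ratio of 0.59 did not pass (edgeR adjusted p = 0.179), nor did those of miR-29a-3p and miR-29b-3p (0.48 each, adjusted p = 0.216 and 0.284). All 3 lay near the median of miRNAs at 0.47.

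None of the lists of miRNAs from cells that feed the blood had a member called under each scaling. Their counts stand against 37 of 206 miRNAs higher in EVs under TMM. Under TMM, 1 of 10 red cell miRNAs rose in EVs (miR-486a-3p), as did 2 of 9 platelet miRNAs (miR-22-3p and miR-24-3p), 1 of 6 lymphocyte miRNAs (miR-142a-3p), 2 of 6 liver miRNAs (miR-101b-3p and miR-194-5p) and 0 of 7 vessel wall miRNAs. No member of these lists rose in plasma under TMM, while under RPM scaling 0 rose in EVs and 2 red cell miRNAs, miR-486a-5p and miR-486b-5p, were higher in plasma. Of the 7 fits that left out 1 mouse, miR-142a-3p was called in 7, miR-486a-3p in 5, miR-22-3p in 3, miR-101b-3p in 2, miR-194-5p in 1 and miR-24-3p in 0. The medians of these lists, 0.35, 0.45, 0.58, 0.76 and 0.39 on the log2 scale, stood on both sides of the median of all miRNAs at 0.47. miR-142a-3p, which is made by blood cells, was at 68.9, 78.9 and 106 RPM in EVs and 35.7, 56.1 and 117 RPM in plasma (log2 1.19, edgeR adjusted p = 0.00470), and did not pass under RPM scaling (0.60, adjusted p = 0.0893).

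Among seed families, 2 of 9 let-7 miRNAs (let-7f-5p and let-7i-5p) rose in EVs, with a family median of 0.69, and they were called in 4 and 0 of the 7 fits that left out 1 mouse. Of 5 miR-30, 9 miR-17-92 and 3 miR-29 family members tested, 0 were called in edgeR. Of 13 miRNAs tested from the rodent repeat cluster of miR-297, miR-466, miR-467 and miR-669, 6 rose in EVs, all of them 3p arms of miR-466 at about 1 or 2 RPM, which were called in 1 or 2 of those 7 fits and whose sequences are alike enough to share reads. Brain miRNAs were near the limit, with 2 of 8 tested and none called, and miR-129-5p and miR-9-5p were at 0 in every library. Of 7 muscle and heart miRNAs 1 was tested and did not pass.

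**Figure D5:**
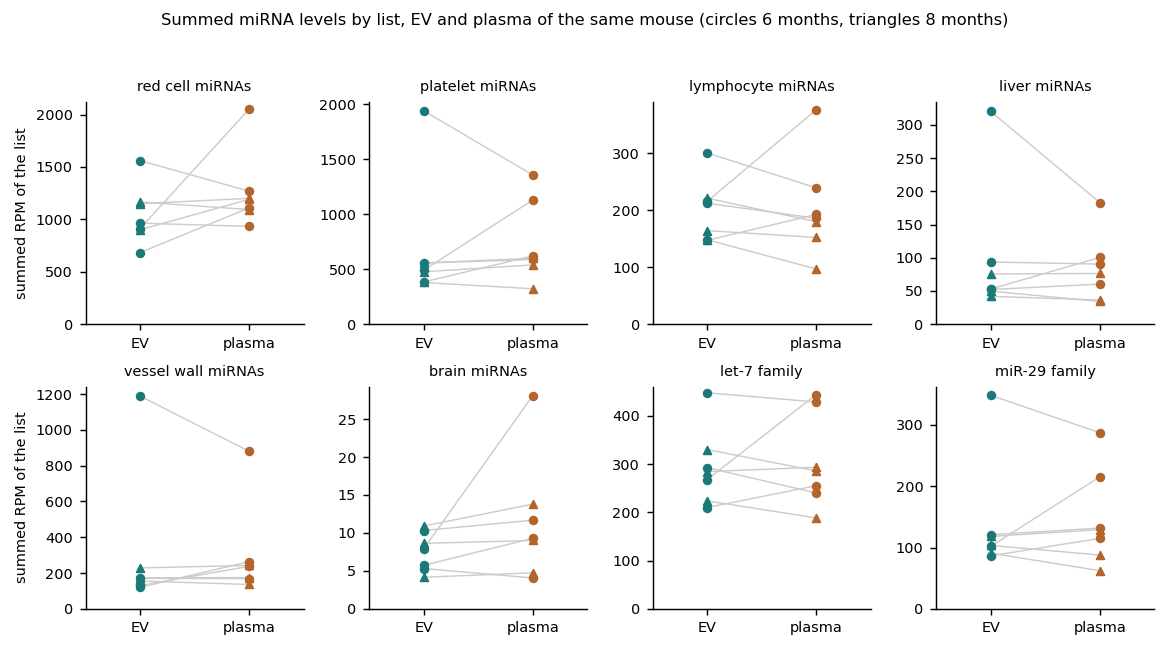
Summed RPM of 8 lists of miRNAs in the 7 EV and 7 plasma libraries, 1 point per library (circles 6 months, triangles 8 months), with lines joining the libraries of a mouse. The EV and plasma ranges overlap for each list, and replicate 4 at 6 months gives the highest vessel wall sum in both fractions (1190 RPM in EVs and 881 RPM in plasma).

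The highest sums of these lists came from single mice. The vessel wall miRNAs summed to 120, 170 and 1190 RPM in EVs and 136, 237 and 881 RPM in plasma, the highest value in both coming from replicate 4 at 6 months. The platelet list summed to 378, 489 and 1941 RPM in EVs and 321, 598 and 1356 RPM in plasma. The red cell list summed to 683, 963 and 1561 RPM in EVs and 933, 1191 and 2053 RPM in plasma, the last in the shallow library of replicate 1 at 6 months. Without replicate 4 at 6 months 1390 RNAs were called across all classes (933 in EVs, 457 in plasma), and without replicate 1 at 6 months 1359 (802 and 557). The part of blood cell or vessel miRNAs in the differences between fractions was not tested.

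Of the 206 miRNAs, 164 were matched to a mature sequence, among them 27 of those called in EVs and 3 of those called in plasma. The motif CNGGNC, searched on the given strand only, was found in 3 of the 27, in 0 of the 3 and in 11 of all 164 (6.71%). GGAG was found in 4 of the 27, in 1 of the 3 and in 15 of all 164 (9.15%). None of these 164 lay within fewer than 5 mismatches of the rRNA transcripts of the annotation used, where 28S rRNA was not among those compared.

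circRNA-annotated fragments formed the largest class, and their small RNA reads need not cross a back-splice junction. Of 7454 tested, 375 rose in EVs and 256 in plasma, 125 and 253 under each scaling, with a median log2 ratio of 0.024. The 8.47% called was below the 10.5% of all RNAs. The 375 fell to 169 without replicate 3 at 8 months, 195 without replicate 1 at 8 months and 219 without replicate 2 at 6 months. mmu_circ_0014362, annotated to Mef2a, a muscle and heart transcription factor gene, stood at 6.03, 14.1 and 25.1 RPM in EVs and 0.439, 1.30 and 3.40 RPM in plasma. It was 14.4-fold higher in EVs without overlap (log2 3.84, SE 0.28, edgeR adjusted p = 2.15e-05). mmu_circ_0006363, annotated to the cilium gene Arl13b, was the reverse, with 0, 1.01 and 2.68 RPM in EVs and 22.8, 72.3 and 89.8 RPM in plasma. Its 38.9-fold difference held in 7 of 7 mice without overlap (log2 -5.28, SE 0.46, edgeR adjusted p = 5.68e-05). The most abundant, mmu_circ_0007463 (Afg3l2, a mitochondrial protease gene), reached 1899, 9031 and 24225 RPM in EVs and 438, 1825 and 4363 RPM in plasma (8.55-fold, log2 3.10, SE 0.41, edgeR adjusted p = 0.000436).

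lncRNA fragments held the largest single difference. 4930579C12Rik was at 0.419, 1.52 and 9.26 RPM in EVs and at 106, 406 and 434 RPM in plasma, 97.4-fold higher in plasma in 7 of 7 mice without overlap (log2 -6.61, SE 0.46, edgeR adjusted p = 1.6e-05). Its transcript is in large part the same as that of Gm2396 on the same chromosome, and reads of the 2 genes may not be told apart. Gm47162 was at the EV end, with 0.446, 12.6 and 34.5 RPM in EVs and 0, 0.855 and 1.42 RPM in plasma (16.1-fold, log2 4.01, SE 0.57, edgeR adjusted p = 0.000665). Gm42864, the most abundant lncRNA, rose 7.20-fold in EVs (1108, 4437 and 11499 against 338, 1030 and 2206 RPM, edgeR adjusted p = 0.000717). Both were higher in EVs in 7 of 7 mice. Over the class, 244 of 5300 lncRNAs rose in EVs and 160 in plasma, 114 and 160 under each scaling, and 7.62% were called against 10.5% of all RNAs. The 244 fell to 148 without replicate 3 at 8 months. Strings of 18 bases shared with rRNA transcripts of the annotation used were sought in the lncRNAs with a sequence. None of 242 called in EVs and none of 156 called in plasma had one, against 36 of all 5092 (0.707%). Because so few lncRNAs had one, its absence among those called does not set them apart. A string shared with an snRNA, snoRNA or misc_RNA was found in 27.7% and 22.4% (34.2% over all lncRNAs with a sequence).

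piRNA-annotated RNAs, a class that in the germline silences transposons with Piwi proteins, moved in both directions. Of 580 tested, 151 rose in EVs and 28 in plasma, 110 and 28 under each scaling, so that 30.9% were called against 10.5% of all RNAs. Without replicate 1 at 6 months 58 were called in plasma. oocyte_piRNA1949 stood at 13.8, 76.8 and 198 RPM in EVs and 1.32, 4.96 and 23.1 RPM in plasma, 15.9-fold higher in EVs in 7 of 7 mice (log2 3.99, SE 0.24, edgeR adjusted p = 4.26e-06). oocyte_piRNA2893 was at 0 in 5 of 7 EV libraries and at 21.9 RPM in that of replicate 3 at 6 months, against 8.89, 18.3 and 48.0 RPM in plasma (log2 -5.98, SE 1.16, edgeR adjusted p = 0.00495). Without that mouse its log2 ratio was -8.50. The most abundant, oocyte_piRNA978, did not pass, with 2598, 13681 and 48014 RPM in EVs and 1834, 18056 and 59759 RPM in plasma (log2 0.54, SE 0.37, edgeR adjusted p = 0.439), and its sign turned under RPM scaling (-0.05). Loci of these piRNAs are not given in the tables, and overlap with tRNA or rRNA was not tested.

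The difference between EVs and plasma was also compared between ages. Between 6 and 8 months 0 of 14498 RNAs had an interaction past the threshold in edgeR (376 had an unadjusted p under 0.05) and 0 in DESeq2 (295). The smallest p belonged to Gm14102 (difference in log2 ratio -2.72, SE 0.63), Morrbid (-1.99, SE 0.48) and mmu_circ_0015603 (2.42), each with an edgeR adjusted p of 1.00. Against the 7 mice aged 2, 12 or 18 months, the 7 mice here differed in 0 RNAs in edgeR (889 at an unadjusted p under 0.05) and in 7 in DESeq2. The smallest edgeR p belonged to n-R5s219, a copy of 5S rRNA, whose log2 ratio was higher by 3.98 (SE 0.67, edgeR adjusted p = 0.206, DESeq2 adjusted p = 0.000265). The next smallest edgeR p belonged to Gm29374 and mmu_circ_0009693 (2.02 and 2.10, edgeR adjusted p = 0.482 each), with DESeq2 adjusted p of 0.0199 and 0.0987, so that the latter was not among the 7. At 2 months the labels of 2 plasma libraries carry 1 code, which leaves the pairing of 2 mice uncertain. Without these 2 mice edgeR called 0 RNAs (764 at an unadjusted p under 0.05). A p that misses the threshold does not show that the ages were alike. The single library replicates came from separate mice, so the p-values measure the spread between animals prepared in the same study.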

How the data were processed

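The authors deposited 2 tables for 80668 RNAs in 10 classes. The first, as deposited, holds estimated counts without normalization. In the second, also deposited by the authors, these counts appear as an RPM signal, each divided by a library constant whose meaning is unknown and which differs from the library's total (summed RPM ran from 930340 to 2054123). Per the labels the build was mm10 and R 4.0.4 was used, by the submitters' processing notes. The aligner, its version and the annotation (for these libraries) were not given in the sources used here. How multiply matching reads were treated is not stated either. Some rows hold identical counts, and whether shared reads were counted for each RNA or split between them is unknown.

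Groups and the pairing of EV and plasma libraries by mouse came from the labels. Deviations of the EV and plasma library of a mouse from their age and fraction mean correlated between -0.126 and 0.464 (14498 RNAs). Among EV libraries of the same age, 6 of 7 plasma libraries correlated best with their own mouse. The exception was replicate 3 at 6 months (-0.126 with its own mouse, 0.342 with another). Centring in groups of 3 or 4 libraries lowers the correlation with other mice, so this check is weak. Estimated counts were rounded (46 miRNAs were not whole), RNAs with at least 1 RPM in at least 7 of 14 libraries were kept, and EVs were compared with plasma by edgeR 4.0.16 (TMM, glmQLFit and glmQLFTest with the mouse as a block, R 4.3.3, limma 3.58.1). P-values were adjusted over all RNAs tested by Benjamini-Hochberg, with a threshold of 0.05. DESeq2 1.42.0 was the other tool. Shares were tested exactly over every sign change of the 7 mice, two-sided. Intervals were not needed, and depth sets the precision: 1 read was worth more RPM in a shallower library. Python 3.11.15, numpy 2.4.6 and pandas 2.3.3 did the rest. The fit was tested on simulated data in which 200 of 14498 RNAs were changed. For EVs against plasma, 11 of 100 changes of 1 on the log2 scale were recovered, and 83 of 100 changes of 2. For 8 against 6 months these numbers were 0 and 1 of 100, and against the other ages 3 and 43 of 100. Most changes of 1 were thus missed.

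RNAs named in the text are, among those past the threshold that moved alike in 7 of 7 mice with a mean of at least 10 counts, the 4 largest changes per direction of miRNAs, the 2 largest of tRNAs and the largest of each other class, then the 5 miRNAs and the 1 RNA of each other class with the highest mean RPM, the members of the lists, and the 3 smallest p of each interaction. Of identical rows the first was named. The comparison, the lists and this rule were chosen with earlier results of these data known. Alternatives were 3 other scalings, other filters, DESeq2, no block, each age alone, each mouse left out and all 28 libraries. Counting identical rows once was chosen after seeing the data. Sequences of tRNAs, piRNAs, circRNAs and 28S rRNA and coordinates of circRNAs were not used here. The sequence and position of 1 RNA are not reported here.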

Additional observations from a re-analysis of the deposited data

Results flagged for a closer look

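Of 91 groups of 7 values tested for a sample far from the others, 16 had one. The nominal rate of the test, 1 in 20, holds for independent groups of normally distributed values. These groups came from the same 14 libraries, so the 16 cannot be set against that rate. In each case the gap of the extreme library or mouse to its nearest neighbour exceeded Dixon's 95% critical value as a part of the range.

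Replicate 4 at 6 months gave 8 of the 16. In its EV library the vessel wall miRNAs (miR-126, miR-143 and miR-145 among them) summed to 1190 RPM against 120 to 228 RPM in the other 6, and in its plasma library to 881 RPM against 136 to 264 RPM. Its EV library also stood apart in the platelet list (1941 RPM, others 378 to 557), the liver list (321 RPM, others 41.8 to 93.6), the muscle and heart list (8.37 RPM, others 0.612 to 3.47), the miR-30 family (93.0 RPM, others 20.5 to 35.5), the miR-29 family (348 RPM, others 86.4 to 121) and the share of snRNA (9.04%, others 1.15% to 4.33%). Without this mouse 1390 RNAs were called.

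Replicate 1 at 6 months, with the shallowest plasma library, gave 4. Its plasma library was highest in red cell miRNAs (2053 RPM, others 933 to 1269), brain miRNAs (28.1 RPM, others 4.06 to 13.8) and the miR-17-92 clusters (655 RPM, others 321 to 441), and its log2 ratio of EVs to plasma for Gm27404 was -4.17 (others -2.95 to -2.02).

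Replicate 3 at 6 months, whose EV library was most like plasma, gave 3. Its log2 ratio of EVs to plasma was 0.77 for tRNA-SeC-TCA-1-1 (the other 6 mice up to 1.70), -0.27 for tRNA-Pro-TGG-2-1 (others -1.80 to -1.15) and -0.0075 for oocyte_piRNA2893 (others -5.33 to -3.31). The last was the EV library of replicate 3 at 8 months, whose rodent repeat miRNAs summed to 18.2 RPM (others 41.9 to 55.0). The cause of these values was not tested.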

How the results depend on the processing

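Of 890 recomputed values of 47 named RNAs, 809 kept their direction and their side of the threshold, 68 lost the call, 2 gained it and 11 turned sign, all 11 of RNAs that had no call. The 1524 calls became 2312 under RPM scaling, 438 with the 6-month mice alone and 552 with the 8-month mice alone, and 991 to 1545 when each mouse was left out, the lowest without replicate 3 at 8 months. Those higher in EVs (1042) became 539 under RPM scaling, 537 under TMM over miRNAs alone, 271 and 418 at 6 and 8 months alone and 624 to 992 without 1 mouse. Those higher in plasma (482) became 1773, 1434, 167 and 134 under the same settings, 827 with no filter and 356 to 557 without 1 mouse. The 40 miRNAs called became 26 under RPM scaling, 21 under TMM over miRNAs alone, 2 and 6 at 6 and 8 months alone and 19 to 31 without 1 mouse. The single ages hold fewer mice. The causes of the other shifts were not tested. With no replicate block, that is without the pairing by mouse, 1258 RNAs were called (837 in EVs, 421 in plasma), 19 of them miRNAs. In shares of counts the unpaired test gave the same log2 ratios of 1.74 for rRNA and -1.22 for tRNA with an adjusted p of 0.00291, since 3432 splits allow smaller p-values.

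Shares without rRNA gave log2 ratios of -0.609 for tRNA, 0.703 for piRNA, 0.748 for snRNA, 0.828 for snoRNA and 0.917 for scaRNA, all then past the threshold, and turned the sign of circRNA (0.510), lncRNA (0.577), miRNA (0.394) and misc_RNA (0.230). Shares without rRNA again sum to a constant, so the fall of tRNA and the rise of the others are not separate results. The lncRNA share lay between -0.090 and 0.0040 without 1 mouse, the sign turning without replicate 3 at 8 months. Signs also turned for Rn7s1 (-0.17 under RPM scaling, -0.073 under TMM over miRNAs alone), Rny1 (-0.31, -0.22), miR-451a (-0.26, -0.16), miR-21a-5p (-0.37, -0.28 and -0.019 at 6 months alone), oocyte_piRNA978 (-0.054 under RPM scaling) and miR-3473b (-0.29 to 0.0040 when each mouse was left out, the highest without replicate 4 at 6 months). DESeq2 called 2001 RNAs, size factors 1529, a minimum of 10 counts 1452, the filter of the study 1598, all 28 libraries 1916 and identical rows counted once 1409. In the interaction with the other ages edgeR called 0 RNAs and DESeq2 7. Depth limits RNAs at 1 or 2 RPM, since a plasma library of 928651 counts holds few reads of them.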

Other observations

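Identity of reads was checked where sequences allowed. Of the 12 miRNAs called under each scaling, miR-494-3p and miR-674-5p shared 14 bases with an rRNA and a misc_RNA transcript, miR-704 and miR-1983 shared 13 and 12 bases with a misc_RNA and an snRNA transcript, and the other 8 shared no string of 12 or more bases with them. No tRNA sequence was compared, so whether reads of these 12 miRNAs, miR-1983 among them, come from tRNAs was not tested. Some of these calls rest on few counts, with a mean of 15.1 counts per library for miR-5621-5p, 16.9 for miR-1898 and 14.4 for miR-704.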
